A study of Drosophila melanogaster with 6 samples.

Results

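Mitochondrial ribosomal protein genes (mRp genes) were examined in whole adult Drosophila melanogaster that carried a driven antimicrobial peptide transgene and in flies that carried the transgene without the driver. The genes were chosen by name, as those whose current symbol is mRpL or mRpS followed by a number. The gene table of the fly assembly held 73 of them, 47 named for the large subunit and 26 for the small subunit. For 69 of these genes a probe set carried no other annotation, which is 69 of 11981 genes measured in this way, and these comprised 44 genes of the large and 25 of the small subunit. The probe sets of mRpL53 and mRpS10 were shared with another gene, and the annotation used here assigned no probe set to mRpL34 or mRpL37. mRpL47 and mRpS11 had 2 probe sets each, so that 73 of 18769 probe sets belonged to the family.

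Mitochondria translate the few proteins encoded in their own DNA, which are core subunits of the respiratory chain and ATP synthase, on ribosomes of their own. The RNA of these ribosomes comes from mitochondrial DNA, whereas all of their proteins are encoded in the nucleus, made in the cytosol and imported. The small subunit reads the messenger RNA and the large subunit joins the amino acids. Some of the proteins have counterparts in bacterial ribosomes and others are found only in mitochondria. In flies, flight muscle and the growing egg are rich in mitochondria.

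Control flies came from the UAS-AMP stock and were not crossed. Flies of the other group, called the cross, came from mating that stock to da-GAL4, a driver that uses the promoter of the broadly expressed gene daughterless to switch on UAS transgenes. Both groups thus carried the UAS transgene, and the cross in addition carried the driver and chromosomes from the driver stock, without a group with the driver alone here. The labels name neither the peptide nor the age of the flies beyond adult. Each group had 3 samples, each a pool of 25 males and 25 females, with 1 Affymetrix Drosophila Genome array per sample. Whether the pools came from separate cultures is not stated, so the p-values rest on a spread among the arrays that may be technical only. Signals are in array units on a scale the authors had set. The median signal over all probe sets was 858 ± 9.62 for control arrays and 831 ± 68.1 for cross arrays (SD, n = 3 each), and the 6 arrays limited the precision. The 95th percentile of the Bacillus control probe sets, taken as a guide to background, was 108 ± 15.4 and 110.2 ± 14.7. All 69 mRp genes lay above it on all 6 arrays, with mean signals of 2041 to 19147 and a median of 4497. Probe sets differ in how strongly they hybridise, so these signals give no order of transcript levels between genes. In pooled whole flies, fewer cells that contain a transcript and less of that transcript per cell cannot be told apart.

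As a family, the mRp genes stood slightly higher in the cross, but on 2 of its 3 arrays and not on the other. Relative to each gene's mean over the 6 arrays on the log2 scale, the median mRp gene lay at 0.15 on cross array 1, -0.09 on cross array 2 and 0.14 on cross array 3. On control arrays 1, 2 and 3 it lay at -0.08, -0.07 and -0.02. Cross array 2 was thus the lowest of the 6 and did not separate from the control arrays. The highest of the 6 signals fell on cross array 1 in 32 genes and on cross array 3 in 30 genes, against 1 gene on cross array 2 and 2 genes on each control array. These are 46.4%, 43.5% and 1.45% of the mRp genes for cross arrays 1, 3 and 2, where the shares of all genes were 18.9%, 11.8% and 20.1%. The lowest signal fell on cross array 2 in 21 mRp genes and on control arrays 1, 2 and 3 in 17, 14 and 16, so the low signals were spread over these 4 arrays, and it fell on cross arrays 1 and 3 in 1 and 0 genes. For the first 4 arrays these are 30.4%, 24.6%, 20.3% and 23.2%. The shares of all genes there were 17.4%, 13.5%, 21.3% and 11.9%, and those of bright genes 22.2%, 12.5%, 25.9% and 14.4%. On cross arrays 1 and 3 the shares were 1.45% and 0% of mRp genes, 14.1% and 21.8% of all genes, and 10.6% and 14.4% of bright genes. Over all 11981 genes the median deviation stayed between -0.04 and 0.07 on the 6 arrays. Over the 3994 bright genes it was 0.04, -0.06 and 0.02 on cross arrays 1, 2 and 3 and -0.01, -0.04 and 0.04 on control arrays 1, 2 and 3. Cross array 2 was thus also the lowest of the 6 for bright genes in general, at a smaller size.

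**Figure D1:**
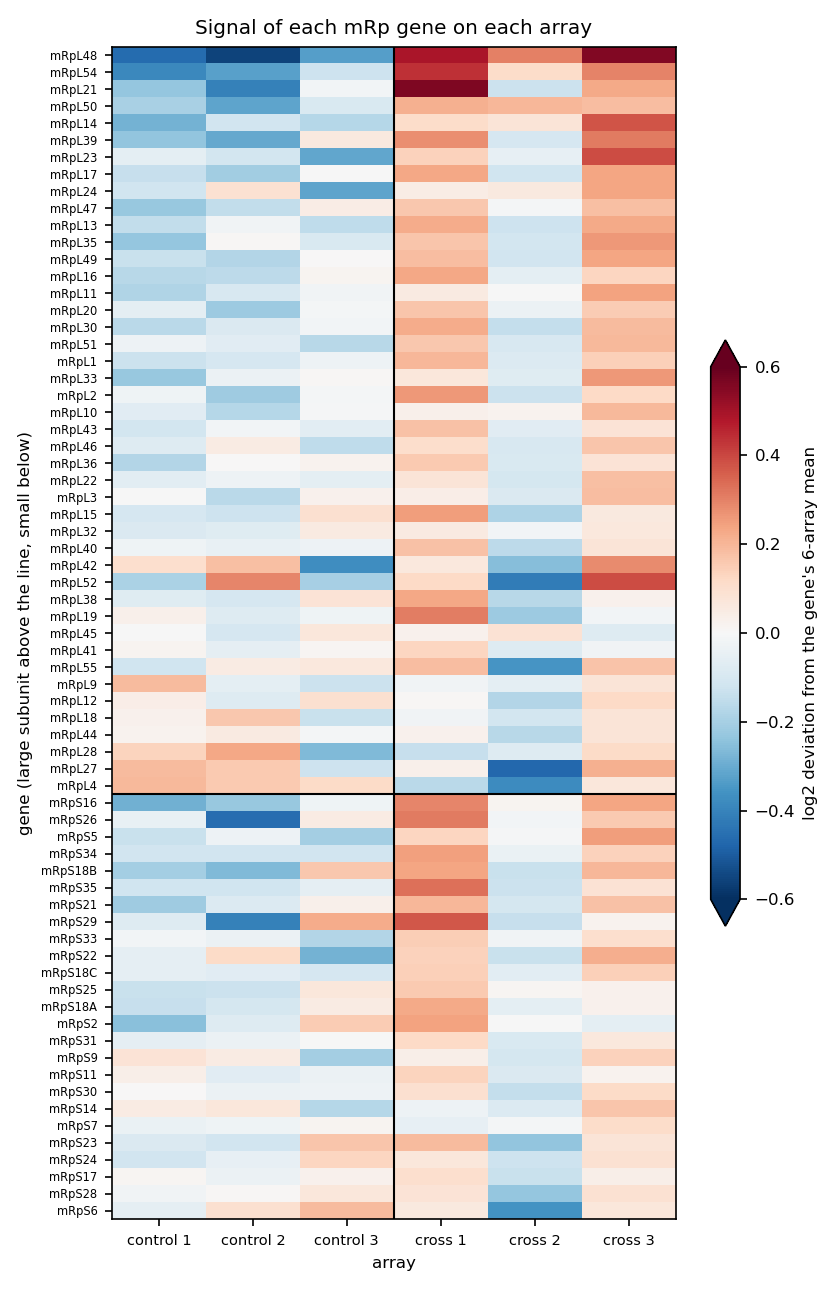
Log2 signal of each of the 69 mRp genes (rows, large subunit above the black line and small subunit below, each sorted by fold change) on each of the 6 arrays (columns), as the deviation from the gene's own mean over the 6 arrays; red is higher and blue lower, and the colour scale ends at 0.6 either way. Cross arrays 1 and 3 are red through most rows, whereas cross array 2 is mostly as pale or blue as the control arrays.

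Set against the mean of the control arrays, the median mRp gene was 0.22 higher on cross array 1 and 0.20 higher on cross array 3, and it was -0.03 on cross array 2 (log2 scale). Of the 69 genes, 53 exceeded all 3 control arrays on cross array 1 and 52 did so on cross array 3, or 76.8% and 75.4%. On cross array 2 the count was 11, or 15.9%, and 21 genes, or 30.4%, lay below all 3 control arrays there, a share close to the 30.9% of all genes. For all genes, 30.1%, 27.7% and 22.4% exceeded all controls on cross arrays 1, 2 and 3.

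Averaged over the arrays, 60 of the 69 genes were higher in the cross and 9 lower. Their median log2 fold change was 0.13, with quartiles of 0.04 and 0.20. Over all genes, 49.8% were higher and the median was -0.0019, with quartiles of -0.26 and 0.20. Over the bright genes, 54.5% were higher and the median was 0.03, with quartiles of -0.14 and 0.17. The family's differences were therefore small and narrowly spread. A difference above 1.2-fold was seen upward in 9 mRp genes, or 13.04%, and downward in 1, or 1.45%, whereas 18.6% and 24.5% of all genes passed that size upward and downward. The shares of all genes include the dim class, which held 0 mRp genes. Its median SD within groups was 0.489, against 0.152 for bright genes and 0.131 for mRp genes. No p-value is given for the family as a whole. The count of higher genes was 50 without cross replicate 3, 51 without cross replicate 1 and 65 without cross replicate 2, and the median was 0.11, 0.08 and 0.20, respectively.

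Both subunits showed this pattern. Of the 44 genes of the large subunit, 37 stood higher and 7 lower, at a median of 0.15 on the log2 scale, and of the 25 genes of the small subunit, 23 stood higher and 2 lower, at a median of 0.13. By array, the median large subunit gene deviated by -0.09, -0.08 and -0.02 on control arrays 1 to 3 and by 0.16, -0.09 and 0.18 on cross arrays 1 to 3. For the small subunit the values were -0.06, -0.07 and 0.02 in the control and 0.14, -0.09 and 0.10 in the cross. The subunits differed by 0.0162 in their median fold change, and the difference ranged from -0.0162 without cross replicate 3 to 0.0667 without cross replicate 2, so it had no settled sign. Symbols do not always match the place of the protein, since the human homologues of mRpS18A and mRpS30 sit in the large subunit. With these 2 genes counted there, the medians were 0.13 for the large and 0.13 for the small subunit.

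**Figure D2:**
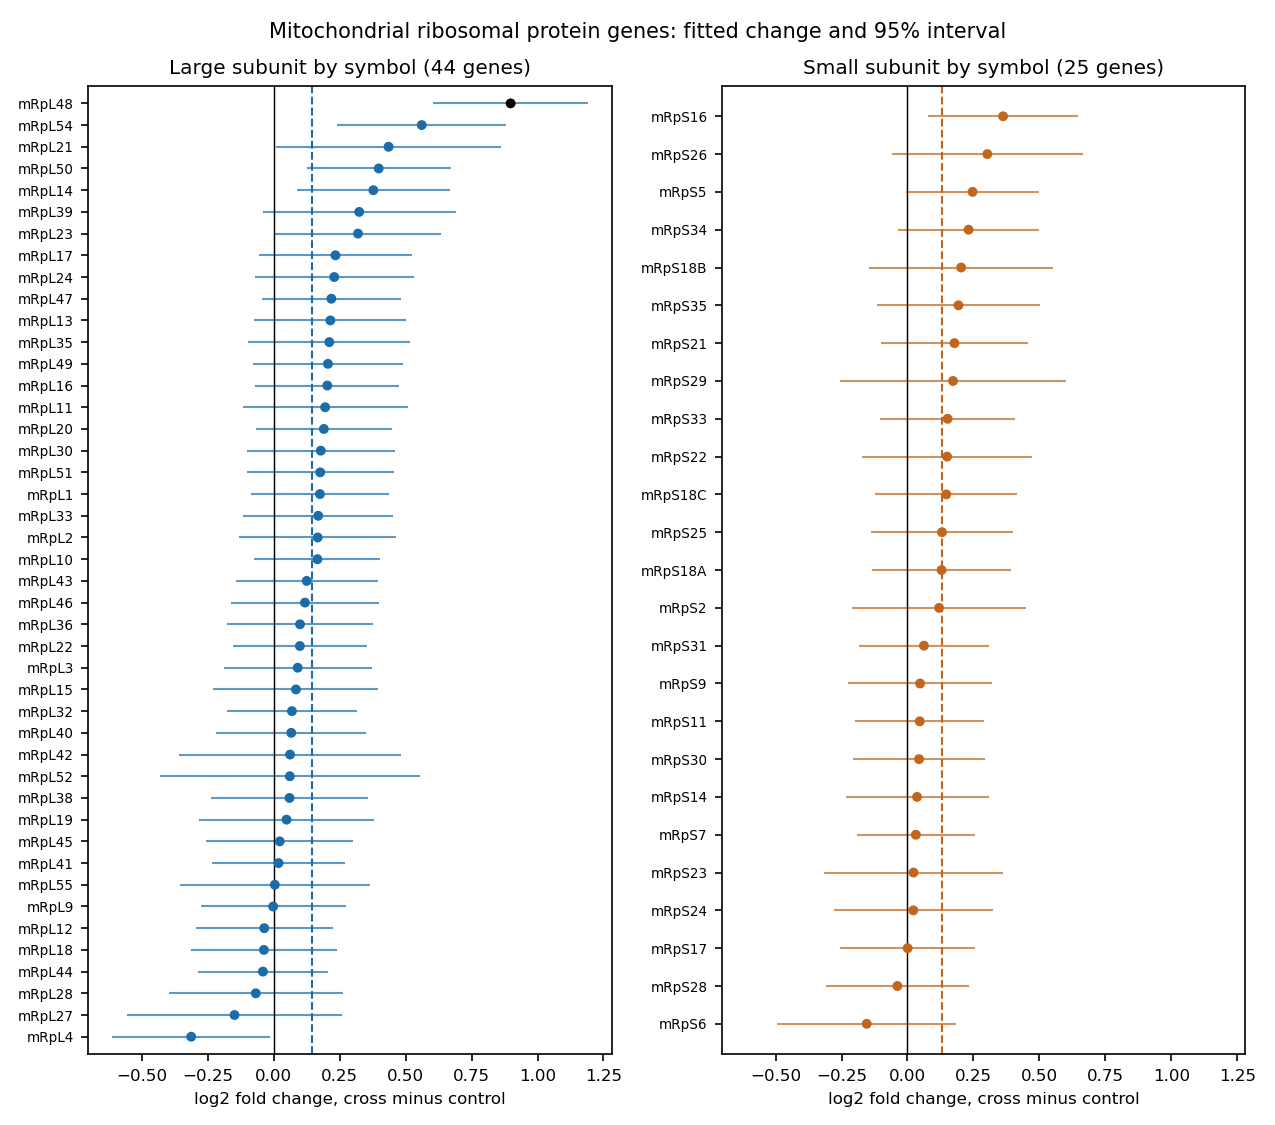
Log2 fold change, cross minus control, of the 44 large subunit and 25 small subunit genes (points) with the 95% interval of the fit (lines) and the median of each subunit (dashed); the black point is mRpL48, the gene that passed the test. Most points lie between 0 and 0.25, with mRpL48 at 0.90 and mRpL54 at 0.56 apart from the rest on the right and mRpL4 at -0.31 lowest.

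A single member passed the test over all probe sets. mRpL48, a protein found only in mitochondria that in mammals is part of the central protuberance of the large subunit, had signals of 2198, 2064 and 2415 on the control arrays and of 4259.9, 3735 and 4461 on the arrays of the cross. The groups did not overlap, and cross array 2, low for most of the family, was here also far above the controls. The mean rose from 2226 ± 177 to 4152 ± 375 (SD, n = 3 each), 1.86-fold, with a log2 fold change of 0.90 ± 0.13 (SE) and an adjusted p of 0.0205 in limma. In that fit 1 of 69 mRp genes passed upward and 0 downward, where 0.309% of all probe sets passed upward and 0.474% downward. The call was lost at adjusted p-values of 0.158 without control replicate 1, 0.106 without control replicate 2, 0.132 without cross replicate 1 and 0.0661 without cross replicate 3. It was also lost with a constant prior variance in limma, at 0.14, a setting in which 0% of probe sets passed, and it held in 8 of 14 alternatives. The log2 fold change itself stayed between 0.84 and 0.97 in all of them. The genes on either side of mRpL48 by order along chromosome arm 2L, CG17660 and frtz, had log2 fold changes of 0.0001 and -0.52, and frtz had an adjusted p of 0.204.

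**Figure D3:**
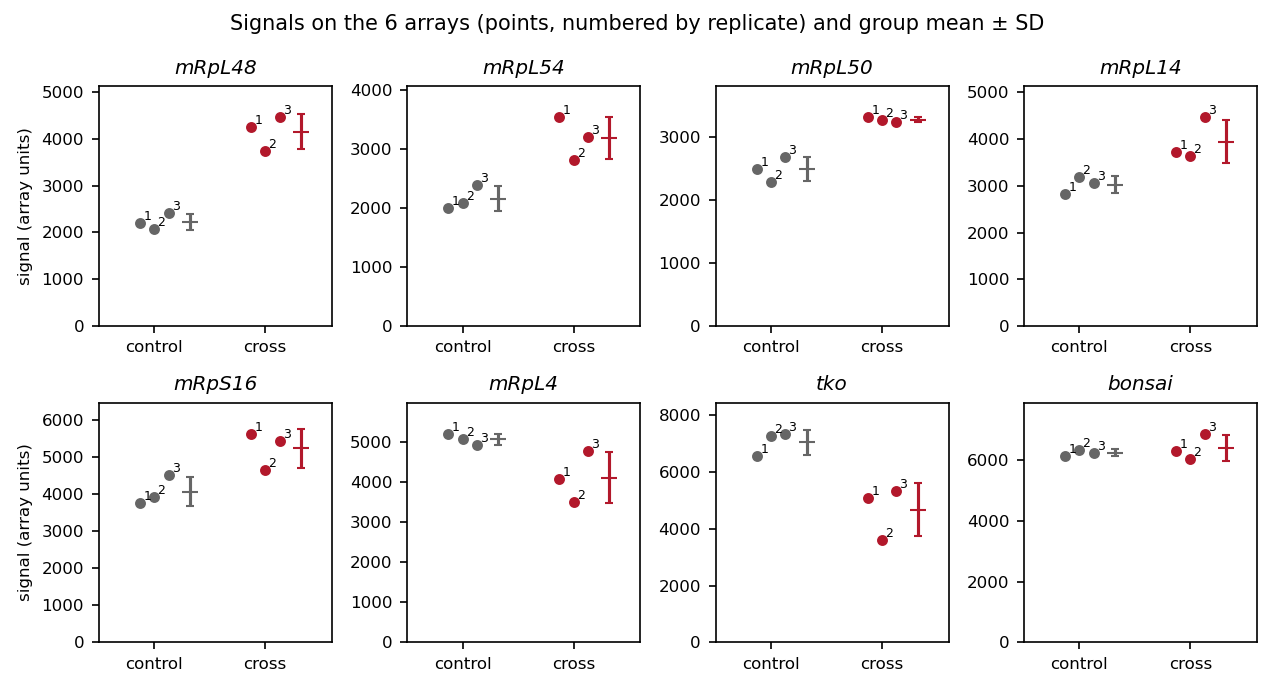
Signals in array units (vertical axes, from 0) of 6 mRp genes and of tko and bonsai, which encode mitochondrial ribosomal proteins under other symbols; points are arrays, numbered by replicate, and bars are the mean ± SD of the 3 arrays of a group. The groups lie apart in every panel except bonsai, upward in the first 5 genes and downward in mRpL4 and tko.

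Next in order of p were 4 members that were higher on every array of the cross without passing the test. mRpL54, a large subunit protein found only in mitochondria, had signals of 1993, 2078 and 2390.4 in the control and 3532, 2813 and 3202 in the cross, 1.48-fold apart (log2 fold change 0.56 ± 0.14 (SE), adjusted p = 0.137). mRpL50, also found only in mitochondria, had 2492, 2287 and 2677 in the control and 3305, 3264 and 3237 in the cross, 1.32-fold apart (adjusted p = 0.209). In both, cross array 2 stood above all controls. mRpL14, the counterpart of a bacterial protein at the face where the subunits meet, had 2826, 3183 and 3059 in the control and 3719.8, 3631 and 4468 in the cross, 1.30-fold apart (adjusted p = 0.265). mRpS16, the counterpart of a bacterial protein of the body of the small subunit, had 3763, 3927 and 4513 in the control and 5625, 4644 and 5425 in the cross, 1.29-fold apart (adjusted p = 0.276). The groups were closest in mRpS16, where cross array 2 exceeded the highest control array only narrowly.

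In all, the 3 arrays of the cross lay above the 3 control arrays in 10 of 69 mRp genes, or 14.5%, where 5.76% of all probe sets did, and below them in 1, or 1.45%, where 12.8% of all probe sets did. Counted by gene, 805 of 11981 lay apart upward and 1569 downward. In the bright class, 6 of 61 mRp genes and 332 of all 3994 genes lay apart upward, and 1 and 535 downward. In the middle class, 4 of 8 mRp genes and 313 of all 3993 genes lay apart upward. The upward excess thus lay mostly in the few mRp genes of middle signal. At an unadjusted p under 0.05, 7 mRp genes were higher and 1 lower, or 10.1% and 1.45%, where 3.84% and 8.67% of all probe sets were. Counted by gene, 555 of 11981 were higher and 1100 lower at that level. In the bright class, 3 of 61 mRp genes and 248 of all 3994 genes were higher, and 1 and 403 lower. In the middle class, 4 of 8 mRp genes and 206 of all 3993 genes were higher. Besides the 5 genes above, the groups lay apart upward in mRpL23, mRpS5, mRpS34, mRpL10 and mRpL11. mRpL23, whose bacterial counterpart lies at the exit of the peptide tunnel, had 4865, 4698 and 4085 in the control and 5575, 4889.8 and 6655 in the cross, 1.25-fold apart (adjusted p = 0.397). mRpS5, whose bacterial counterpart acts in decoding, had 17339.5, 18624 and 16537 against 20802, 18956 and 22622, 1.19-fold apart (adjusted p = 0.411). mRpS34, needed for a stable small subunit in mice, had almost equal signals of 3440.0, 3437 and 3437 in the control and of 4424, 3622 and 4106 in the cross, 1.17-fold apart (adjusted p = 0.473). mRpL10 and mRpL11, counterparts of bacterial proteins at the base of the stalk that receives translation factors, were 1.12-fold and 1.14-fold apart, with adjusted p-values of 0.557 and 0.593, and mRpL10 is named here after its values were seen. In these 5 genes cross array 2 cleared the controls by less than either other array of the cross.

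mRpL21 and mRpL39 had differences of similar size with overlapping groups. mRpL21, with a bacterial counterpart, had 2495, 2211 and 2898 in the control and 4313, 2676 and 3426 in the cross (log2 fold change 0.44, adjusted p = 0.390). mRpL39, found only in mitochondria, had 2322, 2213 and 2850.2 in the control and 3317, 2552 and 3395 in the cross (log2 fold change 0.32, adjusted p = 0.459). In both genes the overlap came from cross array 2, which lay below control array 3.

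The lower members were fewer, and their differences were mostly within the spread between arrays. mRpL4, whose bacterial counterpart lines the tunnel through which the new chain leaves, had 5208, 5078 and 4932 in the control and 4073, 3500.4 and 4769.5 in the cross. It was the only member in which every array of the cross lay below every control array, with means of 5072 ± 138 and 4114 ± 636 (SD, n = 3 each), 1.24-fold apart (95% interval of the log2 fold change -0.61 to -0.01, adjusted p = 0.380). mRpS6 had 3242, 3598 and 3841 in the control against 3506, 2624 and 3531 in the cross (log2 fold change -0.15, adjusted p = 0.697). mRpL27, whose bacterial counterpart reaches towards the site of peptide bond formation, had 5135, 5020.1 and 4139 against 4606, 3251 and 5229 (log2 fold change -0.15, adjusted p = 0.758). In mRpS6 and mRpL27 the arrays of the groups interleaved, with cross array 2 the lowest of the 6. mRpL28, mRpL44, mRpS28, mRpL18 and mRpL12, the last a counterpart of the bacterial stalk protein, had log2 fold changes of -0.07, -0.04, -0.04, -0.04 and -0.04, and the sign of each turned in at least 1 alternative.

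At the ends of the family's signal range the differences varied in size. mRpS5, mRpS7 and mRpL28 had the highest signals, and their log2 fold changes were 0.25, 0.03 and -0.07. mRpS7, the counterpart of a bacterial protein of the head of the small subunit, had 8832, 8936 and 9193 in the control and 8777, 9018 and 9791.5 in the cross, so that its groups overlapped. mRpL11, mRpL54 and mRpS24 had the lowest signals, and their log2 fold changes were 0.19, 0.56 and 0.02. mRpS24 had 2397, 2503 and 2841 in the control and 2716, 2383 and 2759.5 in the cross. By the classes of mean signal given above, 61 mRp genes were bright, 8 middle and 0 dim. The 8 middle ones were all higher, with a median log2 fold change of 0.36 against 0.03 for all genes of that class, and the 61 bright ones had a median of 0.12 against 0.03.

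Proteins found only in mitochondria and those with bacterial counterparts had similar medians. Of the 25 genes of the first kind, 24 were higher (median log2 fold change 0.13), among them all 10 of the small subunit (median 0.15), and the exception was mRpL44. Of the 44 genes with a bacterial counterpart, 36 were higher (median 0.12), with medians of 0.17 for the 29 of the large subunit and 0.05 for the 15 of the small subunit. By chromosome arm, 11 of 11 mRp genes on X were higher, 9 of 12 on 2L, 8 of 10 on 2R, 15 of 17 on 3L and 17 of 19 on 3R. The medians of the mRp genes on these arms were 0.13, 0.14, 0.06, 0.19 and 0.07, and those of all genes on the same arms were -0.04, 0.02, 0.0007, 0.0001 and 0.01. On each arm most mRp genes were thus higher.

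The other probe sets of the family gave log2 fold changes from -0.08 to 0.20. The dimmer probe set of mRpL47 had a log2 fold change of 0.13 beside 0.22 for the brighter one, with adjusted p-values of 0.720 and 0.492. Those of mRpS11, whose bacterial counterpart lines the path of the messenger RNA, disagreed in sign at 0.05 for the brighter and -0.08 for the dimmer, with adjusted p-values of 0.883 and 0.815. The probe set shared by mRpL53 and CG33155 had 7500.2, 8673 and 7713 in the control and 8919, 8502 and 9467 in the cross (log2 fold change 0.17, adjusted p = 0.546). The one shared by mRpS10 and CG34316 had 5030.4, 4759 and 5197 in the control and 6246, 4808 and 6334 in the cross (log2 fold change 0.20, adjusted p = 0.560). Signals of the genes in each shared pair cannot be told apart.

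Proteins of the mitochondrial ribosome also stand under symbols that the choice by name leaves out, and tko and bonsai were both measured. tko encodes the counterpart of bacterial ribosomal protein S12, which acts in decoding, and flies with mutant tko are paralysed by mechanical shock. Its signals were 6543, 7254 and 7339 in the control and 5083, 3596 and 5338 in the cross, so that all 3 arrays of the cross lay below the controls. The mean was 7045 ± 437 in the control and 4672 ± 941 for the cross (SD, n = 3 each), 1.53-fold lower, with a 95% interval of the log2 fold change of -0.97 to -0.26. It did not pass the test (adjusted p = 0.139, 0.119 to 0.422 over 14 alternatives), and it was lower in all of those alternatives. bonsai, the counterpart of bacterial S15, had 6113, 6334 and 6235 in the control and 6283, 6036 and 6851 in the cross, which overlapped (log2 fold change 0.04, adjusted p = 0.907). Of these 2 small subunit genes, only tko thus kept its direction in every alternative, and the sign of bonsai turned in 1 of 14.

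Of the other genes that mitochondria need to express their DNA, 0 passed the test in either direction. Of 8 measured translation factors, 4 lay higher and 4 lower, at a median of 0.0045. mEFTs, the factor that recharges the elongation factor Tu, had 6293, 6179 and 7187 in the control and 7907, 8650 and 6899 in the cross (log2 fold change 0.25, adjusted p = 0.444), and mEFTu2, an elongation factor Tu, had a log2 fold change of 0.17 (adjusted p = 0.604). Of 17 measured tRNA synthetases and related genes, 9 were higher and 8 lower (median 0.04), with CysRS-m at 0.29 (adjusted p = 0.545) and PheRS-m at -0.22 (adjusted p = 0.533). Of 10 genes of mitochondrial transcription and RNA handling, 7 were higher and 3 lower (median 0.11). SLIRP2, a relative of an RNA-binding protein that stabilises mitochondrial messenger RNA in mammals, had 876, 956 and 1262 in the control and 1512, 1541 and 1502 in the cross, which lay apart (log2 fold change 0.58, adjusted p = 0.227). mTTF, a terminator of mitochondrial transcription, had 3065, 2478 and 2879 in the control and 2289, 2284 and 2249 in the cross, which lay apart downward (log2 fold change -0.30, adjusted p = 0.400). The medians of the 3 lists lay between 0.11 and 0.17 on cross array 1 and between -0.14 and -0.05 on cross array 2. On cross array 3 the translation factors and the tRNA synthetases, at -0.03 each, did not share the high level of the mRp genes, whereas the transcription and RNA genes were at 0.12. The medians of the translation factors and tRNA synthetases changed sign with 1 array left out, over ranges of -0.03 to 0.07 and -0.02 to 0.09.

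Proteins of the cytosolic ribosome and of the respiratory chain had other patterns over the arrays. Of 41 cytosolic ribosomal protein genes measured, out of 93 listed, 39 lay higher and 2 lower, and the median log2 fold change was 0.17. The split and the size depended on the scaling, with 32 higher, 9 lower and a median of 0.06 under quantile scaling, and the median was 0.09 without cross replicate 3. Of these 41 genes, 15 have symbols that mark a relative or a duplicate copy, and without them 26 of 26 were higher (median 0.16), or 19 of 26 under quantile scaling (median 0.03). Over the 41 genes the median deviation was -0.05, -0.18 and -0.03 on control arrays 1 to 3 and -0.05, 0.08 and 0.23 on cross arrays 1 to 3. Cross array 2, the lowest for the mRp genes, was thus above all controls for the cytosolic list, and cross array 1 was not. RpLP2, a protein of the cytosolic stalk, had a log2 fold change of 0.29 (adjusted p = 0.401), and RpL32 one of 0.26 (adjusted p = 0.423). Of 75 respiratory chain genes measured, 40 were higher and 35 lower (median 0.02), a median without a settled sign, since it was -0.04 under quantile scaling and ranged from -0.14 without control replicate 3 to 0.14 without cross replicate 1. The list mixes groups that differed. Of the 21 genes whose symbols name them as relatives of a subunit, such as COX4L and SdhBL, 18 were higher (median 0.21). Under quantile scaling 21 of these 21 were higher (median 0.23). Of the 53 others without the assembly factor Sdhaf3, 21 were higher and 32 lower (median -0.03). For these 53 the median was 0.02 with median centring, and under quantile scaling 11 were higher and 42 lower (median -0.08). The median deviation of the relatives was -0.20, -0.26 and 0.12 in the control and 0.02, 0.67 and -0.23 in the cross, so they were highest on cross array 2. That of the 53 others was 0.18, 0.19 and -0.30 in the control and -0.23, -0.09 and 0.27 in the cross. This separation by symbol was made after the values were seen and carries no test. UQCR-Q, a subunit of complex III, had 8874, 8911 and 8102 in the control and 9336, 10491 and 11338 in the cross (log2 fold change 0.26, adjusted p = 0.379), and ND-20L, 1 of the relatives, had a log2 fold change of 0.78 (adjusted p = 0.307). None of the genes measured in these 2 lists passed the test.

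**Figure D4:**
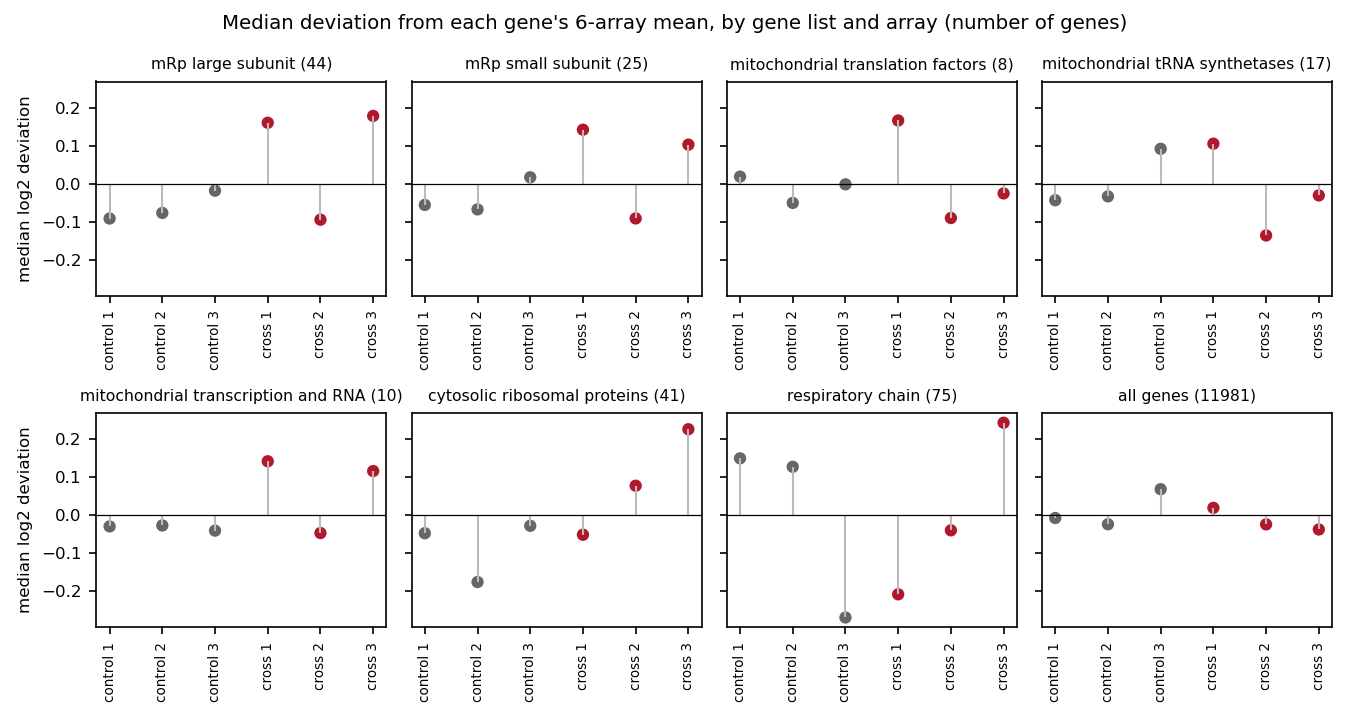
Median log2 deviation (vertical axes) of the genes of 8 lists from each gene's own mean over the 6 arrays, on each control and cross array (horizontal axes); the number of genes is given in parentheses. Both mRp subunits are high on cross arrays 1 and 3 and at -0.09 on cross array 2, whereas the cytosolic ribosomal proteins are high on cross arrays 2 and 3.

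Markers of tissues rich in particular transcripts also differed between arrays of the same group. For ovary and egg, 15 of 17 listed genes were measured, and their summed signal ranged from 598249.8 to 827035 in the control and from 483710.5 to 886212 in the cross. Averaged over the arrays, 4 of the 15 were higher in the cross and 11 lower (median log2 fold change -0.17), where 49.8% of all genes were higher. Their median deviation was 0.25, -0.13 and 0.10 on control arrays 1 to 3 and -0.23, -0.45 and 0.59 on cross arrays 1 to 3. For testis and accessory gland, 18 of 18 were measured, with sums of 210155 to 286811 in the control and 257804 to 433696 in the cross. Of these, 17 were higher in the cross and 1 lower (median log2 fold change 0.30). Past the test upward was 1 of them (adjusted p = 0.0322 in limma, 0.214 with a constant prior variance). The median deviation of these genes was -0.26, -0.34 and 0.15 on control arrays 1 to 3 and 0.02, 0.66 and -0.16 on cross arrays 1 to 3. Cross array 2, on which the mRp genes were lowest, was thus also the lowest for ovary and egg markers and the highest for testis and accessory gland markers. On cross array 3, where the mRp genes were high, ovary and egg markers were the highest of the 6 arrays. Testis and accessory gland markers were at -0.16 there. The remaining arrays did not all follow this order. By their median, ovary and egg markers were also low on cross array 1, where the mRp genes were high. Of these 15 markers, 11 lay below all 3 control arrays there, but 2 lay above all 3. Testis and accessory gland markers were low on control arrays 1 and 2, where the mRp genes were low too. For flight muscle, 9 of 11 were measured, with sums of 231574 to 566408 in the control and 321460.1 to 600793 in the cross. Of these, 3 were higher in the cross and 6 lower (median log2 fold change -0.11). Their median deviation was 0.49, 0.47 and -0.94 on control arrays 1 to 3 and -0.45, 0.02 and 0.34 on cross arrays 1 to 3, so that they were low on cross array 1, where the mRp genes were high. No measured marker was at background on all arrays, and the part of these tissues in the result was not tested.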

How the data were processed

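Per the labels' protocols, 6 pools of whole adult flies gave labelled RNA, each for 1 Affymetrix array. The deposited values are linear intensity signals for each probe set. Their mean without the highest and lowest 2% was 2500.1 on every array, so the authors had scaled them before deposit; the summarisation method is not given in the sources used here. Of 18952 probe sets, 183 controls were left out. GEO's platform annotation gave 13646 of the rest 1 gene symbol, 402 several and 4721 none, and 13543 of the first matched the RefSeq gene table, from which current symbols, arms and neighbours were taken. A gene was read from its brightest probe set annotated to it alone.

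Values were tested as log2(signal + 1) with lmFit and eBayes of limma 3.58.1 in R 4.3.3 (trended and robust prior variance, two-sided, Benjamini-Hochberg adjustment over 18769 probe sets, threshold 0.05), with no covariate. SE and 95% intervals are limma's. The code was tested on simulated data. Medians and counts of lists carry no test. The members, lists, trended prior and alternatives were chosen with earlier results of these data known. Named were mRp genes past the test, the 10 higher and 8 lower with the smallest p, the 3 with the highest and the 3 with the lowest signal, those with several or shared probe sets, and the 2 genes of smallest p in each other list. Bacterial counterparts were assigned from mammalian nomenclature. Alternatives were a constant prior, quantile scaling, a pseudocount of 16, median centring, a fit without the dimmest 33.3%, a replicate block, a fit without probe sets of the suffixes s, x and a, which may read more than 1 transcript, the mean of a gene's probe sets, and leaving out each array. Promoter and protein sequences were not used here.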

Additional observations from a re-analysis of the deposited data

How the results depend on the processing

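The mRp median of 0.13 kept its sign in every alternative, between 0.08 without cross replicate 1 and 0.20 without cross replicate 2. The count of probe sets past the test, 58 higher and 89 lower, became 0 and 0 with a constant prior variance, ranged from 3 to 79 and from 4 to 146 with 1 array left out, and gave 41 lower without probe sets of the suffixes s, x and a. The count of mRp genes past the test, 1 higher, was 0 with a constant prior and 0 to 1 with 1 array left out. At an unadjusted p under 0.05 the count was 7 higher and 1 lower. The difference between the subunit medians ranged from -0.0162 to 0.0667 with 1 array left out, and was -0.0037 with mRpS18A and mRpS30 counted in the large subunit, an alternative chosen after seeing the data, as was the separation of relatives by symbol in the cytosolic and respiratory lists.

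The replicate numbers did not pair the arrays, since deviations of control and cross arrays of the same number correlated at -0.0225, 0.00066 and -0.0972. With the replicate block, 3 probe sets were higher and 5 lower past the test, 0 mRp genes passed, and mRpL48 had an adjusted p of 0.11.

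With median centring the median of all genes turned to 0.048, and mRpL12, mRpL18, mRpL44 and mRpS28 turned to 0.014, 0.0127, 0.0089 and 0.0117. With the mean of its probe sets mRpS11 turned to -0.0152. With 1 array left out, the ranges crossed 0 for mRpL12 (-0.1045 to 0.044), mRpL18 (-0.1131 to 0.034), mRpL27 (-0.2935 to 0.0493), mRpL28 (-0.2166 to 0.031), mRpL44 (-0.0897 to 0.0311), mRpS7 (-0.0143 to 0.0646), mRpS11 (-0.0096 to 0.1004), mRpS24 (-0.0289 to 0.0934), mRpS28 (-0.0937 to 0.069) and bonsai (-0.0159 to 0.0755). The cause was not tested. Of the 36 named genes, 26 kept their sign throughout.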
